A study of Rattus norvegicus with 16 samples.

Results

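Retinal gene expression of unexposed newborn rats was compared between the Sprague Dawley (SD) and the Fischer strain F344. The comparison rests on 8 of the 16 arrays of a study of oxygen-induced retinopathy, chosen because their titles name room air: 4 SD arrays and 4 F344 arrays, in each strain 2 from post-natal day 5 and 2 from day 6. All 15097 probe sets with 1 gene symbol, of 27342 in the table, were tested. The study set F344 rats, which resist oxygen-induced retinopathy, beside SD rats, which are susceptible to it. Its other 8 arrays came from litters kept under cyclic hyperoxia to the same ages, and they enter here only where named. The room air rats had no treatment. Every array held a pool of RNA that had been purified from single animals, and the design text gives 3 rats from 2 litters for the pools without saying whether this is each pool or a pair of them. P values therefore measure the spread between pools. SD rats are an outbred stock and F344 rats an inbred strain, so a pool of the first can also mix genotypes.

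In the first post-natal week the rat retina still produces its last neurons, mainly rods, bipolar cells and Muller glia, while the earlier born cells differentiate and the superficial vessels grow outward from the optic disc. Rods then begin to make the proteins of the phototransduction cascade, in which light leads to the activation of transducin, transducin activates the phosphodiesterase PDE6, and the fall in cyclic GMP closes the cyclic nucleotide-gated channel. Dividing progenitors carry the cell cycle transcripts, which decline as the last divisions end. The RT1 complex is the major histocompatibility complex of the rat, the most polymorphic gene region of the species, and holds genes of antigen presentation beside many unrelated ones.

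The values are log2 expression values, and differences are SD minus F344 on that scale with their moderated standard errors, so that 1 unit is a 2-fold difference. A probe set was called at an adjusted p under 0.05 (limma with day as a block, Benjamini-Hochberg adjustment over the 15097 probe sets, n = 4 SD and 4 F344 arrays). Array medians lay between 5.45 and 5.48, and both arrays of a group correlated at 0.992 to 0.996 across probe sets, which are not independent replicates. Several defining retina markers were high in both strains. Crx, a photoreceptor transcription factor, averaged 10.84 in SD and 10.82 in F344 retinas. Pax6, found in progenitors and amacrine cells, averaged 11.08 in SD and 11.03 in F344, and Rlbp1, a retinoid-binding protein of Muller glia, 10.68 in SD and 10.52 in F344. Gfap, of astrocytes, was low at 4.71 in SD and 4.69 in F344, as was Aqp4, of Muller glia, at 4.79 in SD and 4.69 in F344. Of genes of neighbouring tissues, Mip, Crygs, Rpe65, Lrat and Best1 had strain means between 3.96 and 5.02. Others were above the array median, among them Ttr at 8.62 in SD and 9.19 in F344, Tyrp1 at 6.85 in SD and 6.33 in F344, Rgr at 7.26 in SD and 7.13 in F344 and Cryba1 at 6.73 in SD and 6.75 in F344.

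Strain differences were numerous and mostly under 2-fold. Of the probe sets, 598 were called (3.96%), 267 higher in SD retinas (1.77%) and 331 lower (2.19%), and these belong to 549 genes. At an unadjusted limma p under 0.05 there were 3115 of the 15097, the number to set beside the unadjusted counts of gene lists below. The median called difference was 0.55 among those higher and -0.52 among those lower in SD, while the median over all probe sets was 0.006. The SD and F344 arrays did not overlap in 513 of the 598, against 1583 (10.5%) of all probe sets. Each of the 598 had the same sign on both days. Both counts only describe the called probe sets. The calls were made on these same 8 arrays with day as a block, which favours both features. Over 2-fold differences were called for 45 probe sets (0.298%) of 44 genes, 24 higher and 21 lower in SD, and over 4-fold ones for 5. In 48 called probe sets both strain means lay under the lowest array median, near the floor of the array. The number of calls depended on single arrays. It was 125 without F344 day 6 replicate 2, 126 without F344 day 6 replicate 1, 132 without SD day 6 replicate 2, 241 without F344 day 5 replicate 2, 384 without SD day 6 replicate 1 and 1354 without F344 day 5 replicate 1. In all 8 fits that left out 1 array, 107 probe sets were called, 35 of the 45 over 2-fold among them.

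**Figure D1:**
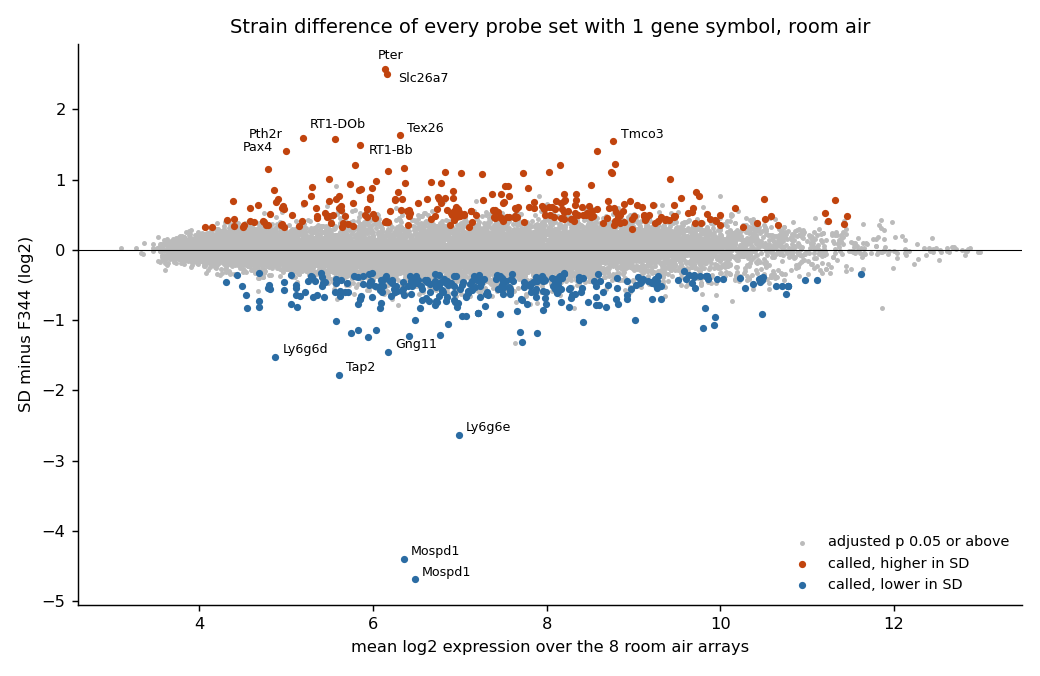
SD minus F344 difference (log2, vertical) against mean log2 expression over the 8 room air arrays (horizontal), 1 point per probe set, with the 267 called higher in SD and the 331 called lower in colour and the largest named. Both Mospd1 probe sets stand apart at -4.69 and -4.40, and most called points lie within 1 unit of 0.

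The largest difference belonged to Mospd1, which encodes a membrane protein of the endoplasmic reticulum with a major sperm protein domain. On the SD arrays its log2 values were 4.15 and 4.24 on day 5 and 3.97 and 4.18 on day 6, against 9.40 and 8.83 on day 5 and 8.68 and 8.39 on day 6 on the F344 arrays. All 4 SD values lay below the array median and all 4 F344 values far above it. The gene was 25.8-fold lower in SD retinas (-4.69 ± 0.15, adjusted p = 9.48e-08), and its second probe set gave -4.40. In the same order of arrays, Ly6g6e, a small surface protein of the LY6 family, had 5.82, 5.60, 5.69 and 5.58 in SD retinas, against 8.35, 8.36, 8.18 and 8.33 in F344 retinas. The groups were separated by over 2 units on every array, with a difference of -2.63 ± 0.08 (adjusted p = 9.48e-08). A lower amount of RNA and a poorer match of the RNA to the probes cannot be told apart from probe set values, for these or any other genes.

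In the other direction, Pter, an enzyme known in mice to hydrolyse N-acetyltaurine, had log2 values of 7.31, 7.35, 7.28 and 7.75 in SD retinas, against 5.29, 4.80, 4.66 and 4.67 in F344 retinas. Slc26a7, an anion exchanger, had 7.47, 7.45, 7.47 and 7.26 in SD retinas, against 5.15, 4.72, 5.11 and 4.67 in F344 retinas. Neither gene's groups came within 1.5 units of each other. Pter was 5.93-fold higher in SD (2.57 ± 0.16, adjusted p = 2.19e-05) and Slc26a7 5.65-fold (2.50 ± 0.12, adjusted p = 6.11e-06). Cd9, a tetraspanin of the cell surface, had 9.30, 9.16, 9.38 and 9.28 in SD retinas, against 7.90, 7.90, 7.83 and 7.89 in F344 retinas. It was among the tightest differences, at 1.40 ± 0.08 (adjusted p = 1.3e-05). Pax4, a homeobox transcription factor best known from the endocrine pancreas, had 5.55, 5.78, 5.62 and 5.86 in SD retinas and 4.17, 4.40, 4.36 and 4.25 in F344 retinas, which puts F344 below the array median and SD slightly above it (1.41 ± 0.10, adjusted p = 5.56e-05).

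**Figure D2:**
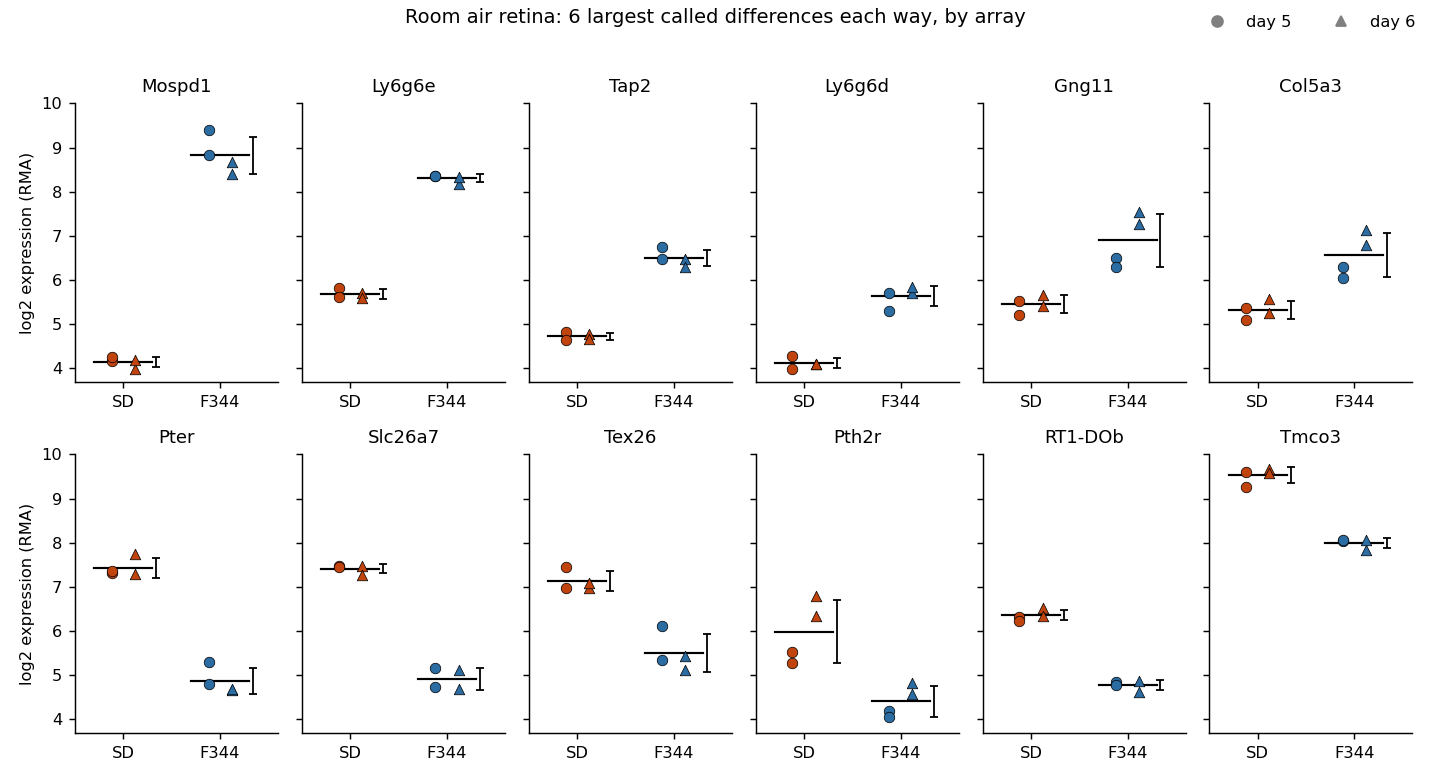
Log2 expression on each room air array for the 6 largest called differences in each direction with arrays that do not overlap (circles day 5, triangles day 6, line the mean and bar the standard deviation of 4 arrays, SD left and F344 right in every panel). Mospd1 lies at 3.97 to 4.24 in SD and 8.39 to 9.40 in F344, and Pter at 7.28 to 7.75 in SD and 4.66 to 5.29 in F344.

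The remaining large differences higher in SD included metabolic enzymes and receptors, with no test of either as a group. Acadsb, a mitochondrial acyl-CoA dehydrogenase of isoleucine breakdown, differed by 1.22 ± 0.21 (adjusted p = 0.0165), a call lost without F344 day 6 replicate 1, F344 day 6 replicate 2 or SD day 6 replicate 2 (adjusted p up to 0.0737). Nit2, an omega-amidase of glutamine metabolism, differed by 1.21 ± 0.11, and Etfbkmt, which methylates a lysine of electron transfer flavoprotein, by 1.15 ± 0.13. Phyh, the peroxisomal phytanoyl-CoA hydroxylase that is defective in Refsum disease, a human disorder with retinal degeneration, averaged 8.58 ± 0.16 in SD and 7.47 ± 0.15 in F344 retinas (standard deviation, n = 4 each; limma adjusted p = 0.00109). Among receptors, Rxfp1, which binds relaxin, differed by 1.17 ± 0.16 and Pth2r, which binds the peptide TIP39, by 1.59 ± 0.15. Pth2r was also higher on day 6 than on day 5 in both strains, with 5.27 and 5.52 on day 5 and 6.34 and 6.80 on day 6 in SD, against 4.17, 4.04, 4.57 and 4.81 in F344. No SD value fell within the F344 range. The membrane protein gene Tmco3 (1.54 ± 0.11) and Tex26 (1.63 ± 0.17) complete the 15 largest together with Gnat1, RT1-Bb and RT1-DOb, described below with their groups. Chosen after their values were seen, the other called genes over 2-fold higher in SD were Xrcc5, the Ku80 subunit of DNA end joining (1.10), Slc25a24, a mitochondrial ATP-magnesium carrier (1.10), Arsb, a lysosomal sulfatase (1.09), Prim1, the catalytic subunit of DNA primase (1.09), Mkks, a chaperonin-like protein of cilia assembly (1.07), Cpne7, a copine (1.00), and the photoreceptor and bipolar genes Guca1b, Pde6b and Trpm1. On their other probe set Slc25a24 was at -0.11, not called, and Arsb at 0.76.

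The large differences lower in SD retinas included single genes of signalling and matrix, with no test of either as a group. Gng11, a gamma subunit of heterotrimeric G proteins, had 5.19, 5.52, 5.41 and 5.66 in SD retinas, against 6.50, 6.29, 7.54 and 7.26 in F344 retinas. F344 was higher on every array, most on day 6 (-1.45 ± 0.17, adjusted p = 0.00247). Col5a3, a chain of type V collagen, averaged 5.32 ± 0.20 in SD and 6.56 ± 0.50 in F344 retinas (standard deviation, n = 4 each; limma adjusted p = 0.00297). Loxl1, a lysyl oxidase that cross-links elastin, averaged 6.16 ± 0.18 in SD and 7.37 ± 0.77 in F344 retinas (limma adjusted p = 0.0185). In both genes F344 differed more between the days than SD did. Loxl1 had 5.92, 6.28, 6.15 and 6.30 in SD, against 6.50, 6.97, 8.11 and 7.92 in F344, and its call was lost without F344 day 5 replicate 2, either F344 day 6 array or SD day 6 replicate 2 (adjusted p up to 0.0878). Rap1gap, which switches off the small GTPase Rap1, differed by -1.19 ± 0.15, the interleukin-12 receptor chain Il12rb2 by -1.19 ± 0.14, the alarmin cytokine Il33 by -1.15 ± 0.23 (not called without F344 day 5 replicate 2, either F344 day 6 array or SD day 5 replicate 1), the mRNA export adaptor Alyref by -1.11 ± 0.12, Lix1 by -1.17 ± 0.12 and the mitochondrial reductase Rtn4ip1 by -1.05 ± 0.12. Fth1, the ferritin heavy chain that stores iron, had 9.44, 9.36, 9.29 and 9.46 in SD retinas, against 9.54, 10.68, 10.74 and 10.87 in F344 retinas. One F344 array thus lay near the SD level (-1.07 ± 0.23, adjusted p = 0.0342), and the adjusted p was 0.0525 to 0.132 in the 6 fits without 1 array that lost this call: without F344 day 5 replicate 2, SD day 5 replicate 1 or any of the 4 day 6 arrays. Chosen after their values were seen, the other genes over 2-fold lower in SD were the major facilitator Mfsd1 (-1.31, adjusted p = 0.0497), Cdk1 (-1.23), the imprinted noncoding RNA H19 (-1.03), the metabotropic glutamate receptor Grm2 (-1.01) and, on 1 of its probe sets, the ribosomal protein gene Rpl13. Mfsd1 and H19 were under 2-fold on their other probe set, at -0.33 and -0.55, both called lower. The Mfsd1 and Cdk1 arrays overlapped between the strains.

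Many phototransduction genes of rods were higher in SD retinas. Of 21 measured rod genes, 9 were called higher and 0 lower (42.9% called, against 3.76% of 14324 genes counted once each, 1.75% higher), 20 of 21 differences were above 0, and the median was 0.50, against 0.01 over all genes. The called genes cover the cascade in order: Gnat1, the alpha subunit of rod transducin (1.11 ± 0.11, adjusted p = 0.00113), Pde6a and Pde6b, the catalytic subunits of rod PDE6 (0.74 ± 0.08 and 1.00 ± 0.09, adjusted p = 0.00218 and 0.000601), and Cnga1, the alpha subunit of the rod channel (0.73). They also cover its shut-off and recovery: Grk1, a kinase of photoreceptors (0.96 ± 0.11, adjusted p = 0.00261), Sag, rod arrestin (0.72), Guca1b, a calcium sensor that activates guanylate cyclase (1.12), Slc24a1, the rod sodium-calcium-potassium exchanger (0.59), and Rdh12, a retinal reductase (0.94). In bulk retina, a larger number of rods and more RNA per rod cannot be told apart. The transcription factors that specify rods were not called: Crx differed by 0.02 (adjusted p = 0.917) and Nrl by -0.15 (adjusted p = 0.413). Rod structural genes were not called either, with Prph2 at 0.15 and Rom1 at 0.05, both proteins of the disc rim.

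Promoters of called rod genes are shown because these genes were called in the same direction and CRX and NRL, the rod transcription factors, are known to act through short motifs near photoreceptor gene starts. The sequences are RefSeq's for the rat assembly GRCr8, 250 bases before to 50 after the annotated start, read 5′ to 3′ along the gene. Capitals mark TAATCC, a CRX-type motif, in Pde6a, and TGCTGA, the core of NRL-type motifs, in the others. The Pde6b promoter is chr14:1511386-1511685 on the minus strand, and those of Rdh12, Sag and Pde6a are chr6:103748207-103748506, chr9:95916947-95917246 and chr18:56946999-56947298 on the plus strand.
Pde6b: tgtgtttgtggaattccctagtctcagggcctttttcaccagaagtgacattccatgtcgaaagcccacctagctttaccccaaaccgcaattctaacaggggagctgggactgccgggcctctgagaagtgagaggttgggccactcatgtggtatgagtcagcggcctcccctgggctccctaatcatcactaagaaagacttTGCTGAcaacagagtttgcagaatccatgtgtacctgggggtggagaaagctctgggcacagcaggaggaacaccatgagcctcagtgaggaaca
Rdh12: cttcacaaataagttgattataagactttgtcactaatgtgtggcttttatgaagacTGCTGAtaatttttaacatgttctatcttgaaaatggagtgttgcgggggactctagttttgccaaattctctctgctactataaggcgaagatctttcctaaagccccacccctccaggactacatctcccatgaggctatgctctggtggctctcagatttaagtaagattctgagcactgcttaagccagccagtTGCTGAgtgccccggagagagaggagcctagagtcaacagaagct
Sag: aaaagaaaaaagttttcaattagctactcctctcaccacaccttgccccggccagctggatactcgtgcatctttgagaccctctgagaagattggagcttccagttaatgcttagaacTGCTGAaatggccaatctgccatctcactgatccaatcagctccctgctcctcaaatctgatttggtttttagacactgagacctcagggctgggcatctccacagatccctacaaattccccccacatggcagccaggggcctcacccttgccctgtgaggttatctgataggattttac
Pde6a: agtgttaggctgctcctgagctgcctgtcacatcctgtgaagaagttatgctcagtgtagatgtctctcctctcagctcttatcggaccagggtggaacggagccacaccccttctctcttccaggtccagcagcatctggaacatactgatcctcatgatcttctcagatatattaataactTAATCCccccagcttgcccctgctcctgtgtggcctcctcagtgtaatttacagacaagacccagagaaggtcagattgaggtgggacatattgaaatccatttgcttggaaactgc
Both strands were searched, as TAATCC or GGATTA and as TGCTGA or TCAGCA. Of the 9 called rod genes 7 had a promoter in the table, and TGCTGA lay in 4 of these (57.1%), Guca1b, Pde6b, Rdh12 and Sag, against 2 of 11 promoters of rod genes that were not called (18.2%) and 18.4% of all 33469 promoters. TAATCC lay in 1 called rod promoter (14.3%), against 7 of the 11 not called (63.6%) and 7.17% of all. Relative to the start, the marked core begins at -45 in Pde6b, at -131 in Sag and at -193 and 6 in Rdh12, and TAATCC at -67 in Pde6a. A match is only a run of letters in this window and no measured site.

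Rod transcripts were mostly higher on day 6 than on day 5 in both strains. The change between days was not tested. Gnat1 had log2 values of 6.94 and 7.20 on day 5 and 7.81 and 7.60 on day 6 in SD retinas, against 6.23 and 6.00 on day 5 and 6.55 and 6.33 on day 6 in F344 retinas. Pde6b had 9.67 and 9.54, then 10.20 and 10.26 in SD, against 8.64 and 8.76, then 9.01 and 9.26 in F344. In both genes SD retinas of day 5 already exceeded F344 retinas of day 6. Grk1 had 6.65 and 6.89, then 7.65 and 7.87 in SD, against 5.76 and 5.80, then 6.61 and 7.07 in F344, so that SD on day 5 and F344 on day 6 overlapped. The SD day 5 mean was above the F344 day 6 mean in 8 of the 9 called rod genes and in 11 of all 21. The 9 were called on these same arrays, which favours their count, and the share over all genes was not counted. The mean over the 21 rod genes was 8.58, 8.72, 9.02 and 9.17 on the SD arrays, against 8.15, 8.20, 8.50 and 8.62 on the F344 arrays. Their median day 6 minus day 5 difference was 0.38 in SD and 0.42 in F344. The median strain difference was 0.50 over the 21 and 0.94 over the 9 called.

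The called genes of the cell cycle list were all lower in SD retinas. Of its 28 measured genes, 8 were called lower in SD and 0 higher (28.6% called, against 2% of all genes called lower), 27 of 28 differences were below 0, and the median was -0.39. Called genes of cell division outside the list were not counted by direction. Examples are Prim1, of DNA primase, which was higher (1.09), and Pttg1, the mitotic protein securin, which was lower (-0.54). These examples do not show how many went each way. Cdk1, the kinase that drives entry into mitosis, had log2 values of 6.73 and 5.91 on day 5 and 5.53 and 5.02 on day 6 in SD retinas, against 7.28 and 7.62 on day 5 and 6.67 and 6.55 on day 6 in F344 retinas. Strains were separate within each day but overlapped across days, the level being lower on day 6 in both (-1.23 ± 0.18, adjusted p = 0.0071). Cdc20, an activator of the anaphase-promoting complex, differed by -0.94, Rrm2, a ribonucleotide reductase subunit, by -0.69, Ccne1, cyclin E1, by -0.55, Tpx2, a spindle assembly factor, by -0.55, Pcna, the replication clamp, by -0.54, Foxm1, a transcription factor of mitotic genes, by -0.46, and Mcm7, a subunit of the replicative helicase, by -0.44. The SD and F344 arrays did not overlap in 2 of the 28, no larger a share than the 10.5% of all probe sets. The mean over the list was 7.76, 7.18, 7.01 and 6.56 on the SD arrays, against 8.08, 7.96, 7.20 and 7.09 on the F344 arrays, and the median day 6 minus day 5 difference was -0.74 in SD and -0.98 in F344. Both SD day 6 arrays were below both F344 day 6 arrays, and SD day 5 replicate 2 lay far closer to day 6 than its partner. Gene by gene, the SD day 5 mean was below the F344 day 6 mean in 6 of the 28 and in 5 of the 8 called. These calls rested on few arrays: 1 of the 28 was called without F344 day 6 replicate 1, F344 day 6 replicate 2 or SD day 6 replicate 2, 3 without F344 day 5 replicate 2 and 5 without SD day 5 replicate 2, whereas 7 to 11 rod genes were called in each of the 8 fits. Of 12 progenitor genes limma called 0 (4 at an unadjusted p under 0.05, against 3115 of all 15097 probe sets). Of the 12, 9 were below 0, with a median of -0.18, Rax, an eye field transcription factor, being lowest at -0.56 (adjusted p = 0.057).

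**Figure D3:**
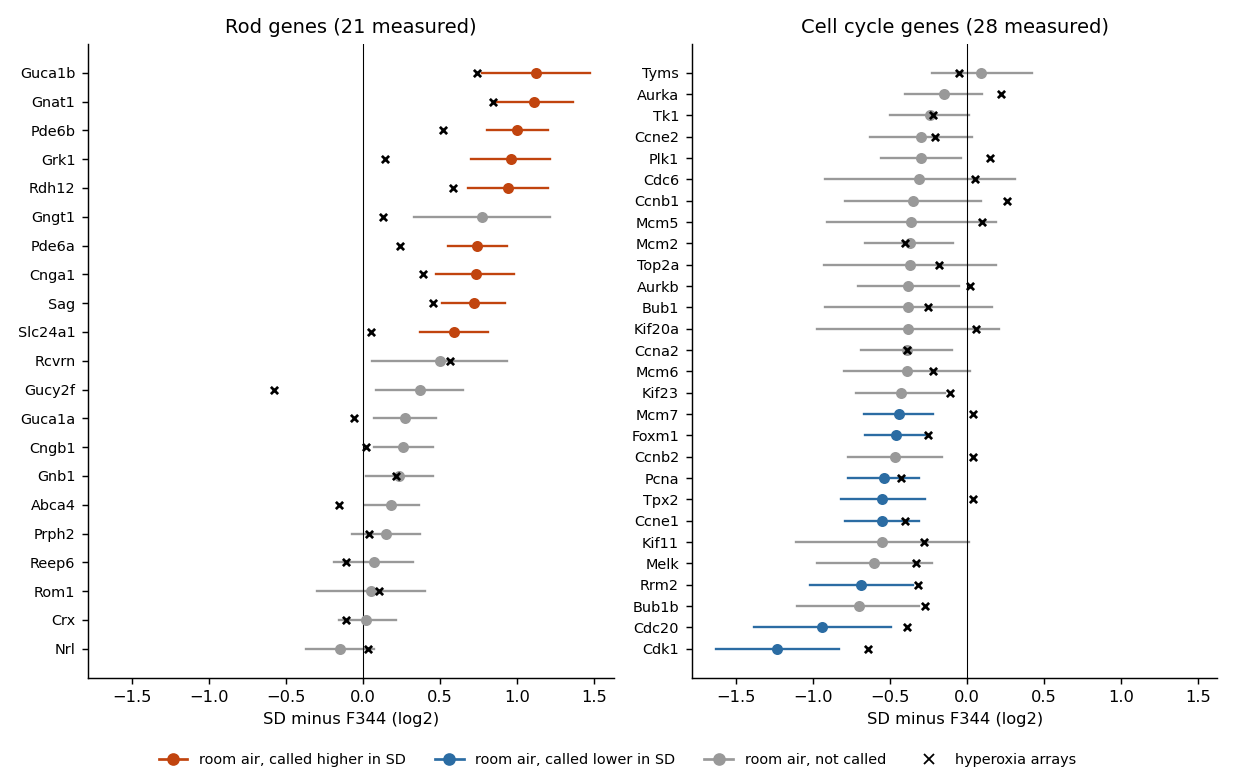
SD minus F344 difference (log2) of the 21 rod genes and the 28 cell cycle genes in room air, with 95% confidence intervals as lines and colour for called genes, and the same difference on the hyperoxia arrays as crosses. In room air 20 of 21 rod genes lie above 0 and 27 of 28 cell cycle genes below it, and most crosses lie closer to 0.

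Markers of other retinal neurons differed gene by gene. Of 14 cone genes 3 were called higher in SD (21.4%, against 3.76% of all genes), namely Pde6c, the cone phosphodiesterase (0.57 ± 0.12), Opn1sw, the short-wavelength opsin (0.42 ± 0.09), and Grk1, which cones share with rods. Of the cone list 11 of 14 differences were above 0, with a median of 0.19. Of 11 bipolar genes 2 were called higher and 1 lower (27.3%), and these include both ends of the same pathway: Grm6, the glutamate receptor of ON bipolar cells, and Trpm1, the channel it controls. Grm6 had 6.67, 6.54, 7.24 and 7.11 in SD retinas, against 7.27, 7.40, 8.09 and 7.98 in F344 retinas. It was lower in SD (-0.79 ± 0.08, adjusted p = 0.00134). By contrast, Trpm1 had 5.34, 6.01, 6.73 and 7.50 in SD retinas, against 4.21, 4.94, 5.66 and 5.93 in F344 retinas. It was higher in SD (1.21 ± 0.22, adjusted p = 0.0174), with overlap across days, and the adjusted p was 0.0821, 0.0693 and 0.0651 without F344 day 6 replicate 1, F344 day 6 replicate 2 or SD day 6 replicate 2. Isl1, a transcription factor of ON bipolar and ganglion cells, was higher in SD by 0.61 ± 0.14 (adjusted p = 0.039) and was the only call among 13 ganglion cell genes. Of 15 amacrine and horizontal cell genes, Th, the dopamine-synthesising enzyme tyrosine hydroxylase, was called lower (-0.50 ± 0.11, adjusted p = 0.0396), at levels of 4.50 to 4.68 in SD and 4.78 to 5.28 in F344 that are below the array median. The calls of Pde6c, Opn1sw, Isl1 and Th were lost in 5 or 6 of the 8 fits without 1 array, those without either F344 day 6 array or SD day 6 replicate 2 among them.

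Glial and vascular lists held 0 to 2 calls each, which in the short lists is a larger share than the 3.76% of all genes. In the Muller glia and tip cell lists 18.2% were called, in the astrocyte list 14.3% and in the endothelial list 4.17%. Among 11 Muller glia genes, Vim, the intermediate filament vimentin, was higher in SD by 0.33 ± 0.08 and Abca8a by 0.43 ± 0.07. Among 7 astrocyte genes, S100b was higher by 0.60 ± 0.11, while Gfap, the filament protein of astrocytes, averaged 4.71 in SD and 4.69 in F344 retinas. Of 24 endothelial genes, Esam, a junction adhesion molecule, was called higher (0.46 ± 0.11, adjusted p = 0.0486), and the list's median was 0.05. Of 11 tip cell genes 2 were called lower. Cxcr4, the chemokine receptor, had 8.57, 8.35, 7.79 and 8.09 in SD retinas, against 9.31, 9.05, 8.84 and 8.77 in F344 retinas, with no overlap (-0.79 ± 0.10, adjusted p = 0.00378). Dll4, a Notch ligand, had 6.60, 6.45, 6.17 and 5.94 in SD retinas, against 7.17, 6.95, 6.53 and 6.58 in F344 retinas (-0.52 ± 0.09, adjusted p = 0.0153). Both genes are also known outside vessels in the developing retina. Vim was not called in any of the 8 fits without 1 array, Esam not in 6 of them, and S100b, Abca8a and Dll4 not in 3 each, which for all 5 include those without F344 day 6 replicate 2 and without SD day 6 replicate 2. Limma called 0 genes of 12 in pericytes (0 at an unadjusted p under 0.05), 18 in microglia (3 unadjusted), 9 in red blood cells (1 unadjusted), 12 in skeletal muscle (0 unadjusted), 12 in lens (1 unadjusted) and 13 in the pigmented and ciliary tissues (4 unadjusted), with medians between -0.03 and 0.13. Over all 15097 probe sets the unadjusted count was 3115. The mean over the list of pigmented and ciliary tissues was 5.76, 5.71, 5.70 and 6.15 on the SD arrays, the highest being SD day 6 replicate 2, and 5.65 to 5.78 on the F344 arrays. Over the lens list it was 4.70 to 5.16 on the SD arrays and 4.69 to 5.31 on the F344 arrays. The part of such tissue in any strain difference was not tested.

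Genes much studied in oxygen-induced retinopathy were not called between the strains over both days. Vegfa, the main angiogenic growth factor, had 9.14, 9.01, 9.08 and 8.93 in SD retinas, against 8.94, 9.18, 9.10 and 9.38 in F344 retinas. The ranges overlapped (-0.11 ± 0.10, adjusted p = 0.587). Slc2a1, the glucose transporter GLUT1, had 9.73, 9.16, 9.56 and 9.08 in SD retinas, against 9.64, 10.23, 9.79 and 9.80 in F344 retinas (-0.48 ± 0.16, adjusted p = 0.131). Igf1, a growth factor needed for retinal vessel growth, differed by 0.37 ± 0.13 over both days (adjusted p = 0.141). On day 6 alone Igf1 was called higher in SD, with 8.15 and 8.19 in SD and 7.39 and 7.60 in F344 (0.68, adjusted p = 0.0127), against 0.06 on day 5 (adjusted p = 0.904; difference between days adjusted p = 0.204), and it was also called over both days with all 16 arrays (adjusted p = 0.0179) or one mean per strain and day (adjusted p = 0.032). Adm, the vasodilator peptide adrenomedullin, differed by 0.26 ± 0.10 (adjusted p = 0.163), Angpt2, a Tie2 ligand, by 0.13 ± 0.08, Edn2, endothelin 2, by 0.12 ± 0.09 and Serpinf1, the anti-angiogenic PEDF, by 0.07 ± 0.08. Epo averaged 4.47 in both strains, which is below the array median. Kdr was not analysed here, having no probe set with 1 symbol. Of 27 hypoxia-responsive genes and 30 angiogenic ligands and receptors limma called 0 (8 and 3 at an unadjusted p under 0.05), with medians of -0.04 and -0.02. Over all 15097 probe sets, 3115 had an unadjusted p under 0.05 in the same limma test. A call that is missing does not show equal levels: the 95% interval of the Slc2a1 difference runs over values as large as those of several called genes. Of 18 glycolysis genes, Ldhb, a lactate dehydrogenase subunit, was called lower (-0.51 ± 0.09). Of 26 antioxidant genes Fth1 and Mt1, a metallothionein (-0.41 ± 0.08), were called lower. Of 14 matrix genes, Sparc was called higher (0.64 ± 0.14) and Fn1, fibronectin, lower (-0.92 ± 0.16). The shares called were 5.56%, 7.69% and 14.3% in these lists, against 3.76% of all genes. The calls of Ldhb, Mt1, Sparc and Fn1 were each lost without either F344 day 6 array or SD day 6 replicate 2, and all but Fn1 also without F344 day 5 replicate 2. Limma called 0 of 12 cholesterol synthesis genes (3 at an unadjusted p under 0.05), 0 of 12 circadian clock genes (2 unadjusted) and 0 of 11 immediate early genes (1 unadjusted). In lists as short as those of this paragraph, 0 or 1 call is near the 3.76% of all genes.

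The longest stretch of neighbouring called genes lay in the RT1 complex. Measured genes were put in the order of the RefSeq table, 14299 of them placed, and 5.39% of the called genes had a called gene as the next one, while 3.76% of all genes were called. Of 29 such adjacent pairs, 20 differed in the same direction. Only 3 runs of 3 or more called neighbours were found. The first, of 5 genes, is Abhd16a, a phosphatidylserine lipase (-0.87 ± 0.15), then Ly6g6f (-0.33 ± 0.07), Ly6g6d (-1.53 ± 0.12), Ly6g6e (-2.63 ± 0.08) and Ly6g6c (-1.15 ± 0.13), all lower in SD. Abhd16a was not called in 4 of the 8 fits without 1 array and Ly6g6f, near the floor in both strains, not in 7, for both genes without F344 day 5 replicate 2, either F344 day 6 array or SD day 6 replicate 2. Ly6g6d had 3.97, 4.27, 4.10 and 4.10 in SD retinas, against 5.70, 5.30, 5.71 and 5.83 in F344 retinas, so SD lay below the array median. Ly6g6c averaged 5.25 ± 0.13 in SD and 6.40 ± 0.26 in F344 (standard deviation, n = 4 each).

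The second run, of 4 genes, changes direction within it. RT1-Ba and RT1-Bb, the alpha and beta chains of the class II molecule RT1-B, and RT1-DOb, a chain of the class II-like molecule that tunes peptide loading, were higher in SD, and their neighbour Tap2, a subunit of the transporter that loads peptides onto class I molecules, was lower. RT1-Bb had 6.57, 6.62, 6.59 and 6.61 in SD retinas, against 5.11, 5.30, 5.10 and 4.91 in F344 retinas. RT1-DOb had 6.32, 6.23, 6.51 and 6.34 in SD retinas, against 4.83, 4.78, 4.62 and 4.85 in F344 retinas. Both separated the strains by over 1 unit on every array (1.49 ± 0.09 and 1.58 ± 0.09, adjusted p = 1.82e-05 and 1.65e-05). Tap2 had 4.81, 4.64, 4.76 and 4.65 in SD retinas, against 6.46, 6.75, 6.47 and 6.29 in F344 retinas (-1.78 ± 0.10, adjusted p = 1.3e-05). Tap1, its partner subunit, was also lower in SD (-0.64 ± 0.08, adjusted p = 0.00356), at 4.22 in SD and 4.86 in F344 retinas. RT1-Ba was low in both strains, at 4.87 in SD and 4.28 in F344 retinas (0.59 ± 0.09, adjusted p = 0.00707). RT1 genes have near-identical copies whose probes can share targets, which makes single values uncertain. The list of 33 antigen presentation and interferon genes, which holds RT1-Ba, RT1-Bb, Tap1 and Tap2, had no other call (12.1% called, against 3.76% of all genes). Its median was 0.02, Cd74, the class II invariant chain, differed by 0.12 (adjusted p = 0.48) and Ciita, the class II transactivator, by -0.06 (adjusted p = 0.702).

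Promoters of the neighbouring class II genes are shown because the genes lie side by side and differ alike. Class II genes are known to share an upstream element that ends in a Y box, an inverted CCAAT motif. The sequences are from RefSeq GRCr8, read along the gene, at chr20:4604069-4604368 for RT1-Bb and chr20:4627474-4627773 for RT1-DOb, both on the minus strand, with CCAAT or its complement ATTGG in capitals.
RT1-Bb: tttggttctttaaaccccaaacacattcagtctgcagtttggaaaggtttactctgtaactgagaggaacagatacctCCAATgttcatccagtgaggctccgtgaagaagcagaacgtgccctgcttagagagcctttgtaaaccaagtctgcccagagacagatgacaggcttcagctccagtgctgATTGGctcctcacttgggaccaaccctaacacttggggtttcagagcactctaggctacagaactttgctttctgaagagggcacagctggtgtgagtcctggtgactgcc
RT1-DOb: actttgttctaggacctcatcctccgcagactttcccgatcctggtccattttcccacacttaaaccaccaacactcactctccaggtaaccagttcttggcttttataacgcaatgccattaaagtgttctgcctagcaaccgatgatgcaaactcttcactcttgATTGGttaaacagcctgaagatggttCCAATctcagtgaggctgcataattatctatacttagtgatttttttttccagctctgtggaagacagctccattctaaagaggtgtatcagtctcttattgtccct
Each holds both orientations once, the first letter of ATTGG being at -61 in RT1-Bb and -83 in RT1-DOb and that of CCAAT at -172 in RT1-Bb and -57 in RT1-DOb. CCAAT or ATTGG is common, lying in 37.5% of all 33469 promoters of this length. The assembly is of a Brown Norway rat, so the letters show where a motif lies and not how SD and F344 differ.

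Between the ends of the first and second run lay 45 measured genes, of which 13 were called (28.9%), 3 higher and 10 lower in SD. The window was set by the runs, which hold 9 of the 13, so that share is a description. Of the 36 genes in it outside the runs 4 were called (11.1%), against 3.76% of all genes. These were Ddah2, an enzyme that clears an inhibitor of nitric oxide synthase, Vars1, the valyl-tRNA synthetase, Skic2, a helicase of RNA decay, and Gpsm3, a G-protein regulator, all lower in SD. The third run, outside the RT1 complex, is Gabrb2, a GABA-A receptor subunit (0.45 ± 0.10), Pttg1, the mitotic protein securin (-0.54 ± 0.08), and Slu7, a splicing factor (0.54 ± 0.12). Its directions alternate, and Gabrb2 and Slu7 were not called in 6 of the 8 fits without 1 array, the exceptions being those without F344 day 5 replicate 1 or SD day 5 replicate 2. Several of the largest single differences also had a called neighbour. Pter adjoined C1ql3, a secreted C1q-like protein (0.88), and Tmco3 adjoined Dcun1d2, a cullin neddylation factor (0.50), in both cases with both genes higher in SD. Gnat1 adjoined Sema3f, a secreted guidance cue, which was lower (-0.60, adjusted p = 0.0189).

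**Figure D4:**
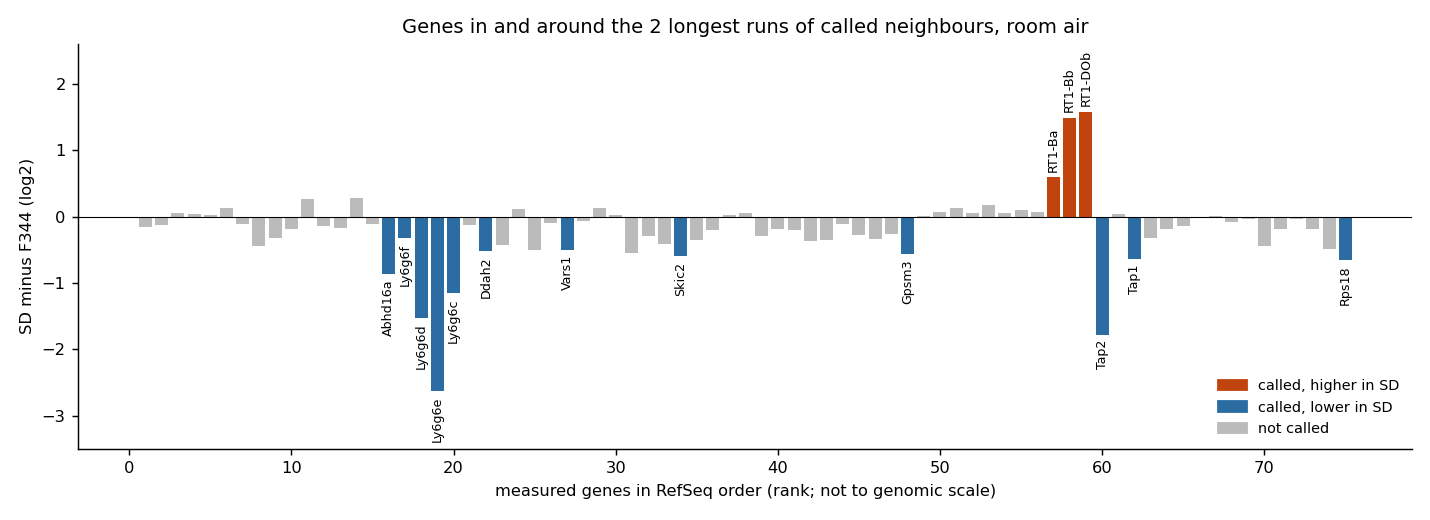
SD minus F344 difference (log2) of 75 measured genes in RefSeq order across the 2 longest runs of called neighbours with 15 genes on each side, 1 bar per gene in room air. Bars of the LY6 run point down to -2.63, while RT1-Ba, RT1-Bb and RT1-DOb point up to 1.58 beside Tap2 at -1.78.

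The strain difference was called for far fewer probe sets on day 5 than on day 6, but no probe set passed the test of the difference between the days. On day 5 alone, with 2 arrays a strain, 50 probe sets were called (0.331%, 1574 at an unadjusted p under 0.05), and on day 6 alone 1540 (10.2%, 3905 unadjusted). The day 6 count was 49, 52 and 505 without F344 replicate 2, F344 replicate 1 or SD replicate 1 of that day, and the day 5 count was 15 and 18 without SD or F344 replicate 2 of that day and 27 without either F344 day 6 array. Both arrays of F344 day 6 were the closest pair, with 1 probe set over 2-fold apart, against 14 in SD day 5, 35 in SD day 6 and 27 in F344 day 5. In the test of the day 6 minus day 5 difference itself, limma called 0 probe sets (0%, smallest adjusted p = 0.177, 1980 at an unadjusted p under 0.05). Those with the smallest p include Irf2bpl, a nuclear regulator (0.39 on day 5, -1.04 on day 6), Ptov1 (-0.12 and -1.41), Fibp, a binding partner of acidic fibroblast growth factor (-0.13 and -1.19), and Slc29a4, a monoamine transporter (0.07 and -1.03). In the other direction were Nsrp1, a splicing regulator (-0.02 on day 5, 1.01 on day 6), Zng1a (-0.27 and 0.68), Zfp40 (0.15 and 0.97) and Riox2, a ribosome-modifying hydroxylase (-0.14 and 0.69). In 7 of the 8 the F344 arrays differed most between the days, and in Riox2 the SD arrays did.

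The same strain difference was measured on the 8 hyperoxia arrays, which share no pool with the room air arrays but were normalized with them. There 1454 probe sets were called (9.63%, 821 or 5.44% higher and 633 or 4.19% lower in SD). Of the 598 called in room air, 576 (96.3%) had the same sign under hyperoxia, against 67.1% of all probe sets, and 318 were also called in the same direction, 157 higher and 161 lower. These 318 are 53.2% of the room air calls and 21.9% of the hyperoxia calls. None of the 22 with the opposite sign was called under hyperoxia. Without single hyperoxia arrays the shared calls numbered 207 to 368, being 207 without SD day 6 replicate 1 and 208 without F344 day 5 replicate 2, and 563 to 581 kept the sign. The hyperoxia calls themselves ran from 510 without SD day 6 replicate 1, through 584 without F344 day 5 replicate 2, 674 and 741 without SD day 5 replicate 1 or 2 and 889 without SD day 6 replicate 2, to 2738 without F344 day 6 replicate 2.

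Most large differences were of like size in both conditions. Of the 45 over 2-fold in room air, 44 had the same sign and 43 were called under hyperoxia. Mospd1 differed by -4.69 in room air and -4.46 under hyperoxia, Ly6g6e by -2.63 and -2.40, Pter by 2.57 and 2.59, Slc26a7 by 2.50 and 2.35, RT1-DOb by 1.58 and 1.64 and Tap2 by -1.78 and -1.93. Over the 45 the hyperoxia difference had a median of 0.94 times the room air one. It was under 0.67 times in 7, namely Pth2r (1.59 in room air, 0.86 under hyperoxia), Guca1b (1.12 and 0.74), Pde6b (1.00 and 0.52), Cdk1 (-1.23 and -0.64), H19 (-1.03 and -0.45), Mfsd1 and Trpm1. The probe sets not called were those of Mfsd1, at -1.31 in room air and -0.49 under hyperoxia, and Trpm1. Trpm1 differed by 1.21 in room air and by -0.07 under hyperoxia, where it had 4.57, 4.81, 6.49 and 5.97 in SD retinas, against 5.23, 4.34, 6.86 and 5.68 in F344 retinas. Those values overlapped, but the difference between conditions did not pass (adjusted p = 0.438).

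The rod genes' differences had a lower median under hyperoxia, but no rod gene passed the test of the change. Over the 9 called rod genes the median was 0.94 in room air and 0.45 under hyperoxia, where all 9 were closer to 0 and 5 were called. Over all 21 the medians were 0.50 and 0.13. Under hyperoxia 6 of the 21 were called higher in SD and 1 lower, against 9.63% of all probe sets called. The lower one was Gucy2f, at 0.37 in room air and -0.58 under hyperoxia (limma adjusted p = 0.0474). The 9 were chosen by their room air values, so this comparison is a description. Gnat1 differed by 1.11 in room air and 0.84 under hyperoxia, Pde6b by 1.00 and 0.52, and Grk1 by 0.96 and 0.14. Among cell cycle genes the medians were -0.39 and -0.21. In the test of the hyperoxia minus room air change of the strain difference over all 16 arrays, limma called 0 probe sets (0%, smallest adjusted p = 0.206, 1212 at an unadjusted p under 0.05), and the smallest adjusted p among the called rod genes was 0.427 and among the called cell cycle genes 0.422. The smallest p values belonged to Rnd2, a small GTPase (-0.59 in room air, 0.12 under hyperoxia), Ogg1, a DNA glycosylase of oxidised guanine (-0.36 and 0.32), Maea, a ubiquitin ligase subunit (-0.20 and 0.44), the beta globin gene Hbb-b1 (-0.26 and 0.88), Chrm2, a muscarinic receptor (0.30 and -0.31), Zfp365 (0.45 and -0.20), Car4, a carbonic anhydrase (0.59 and -0.05), and Gucy2d, a photoreceptor guanylate cyclase (0.46 and -0.23).

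**Figure D5:**
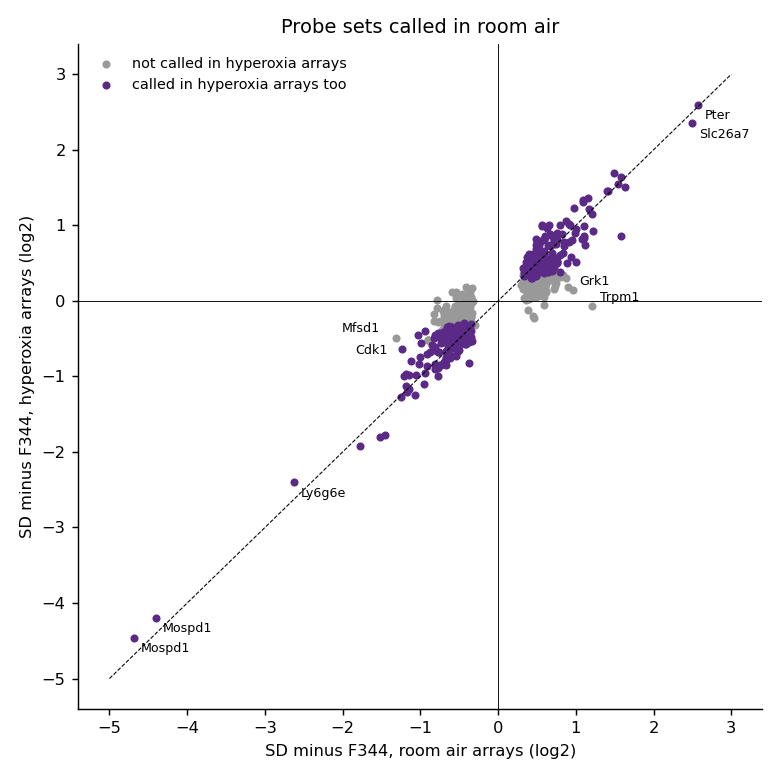
SD minus F344 difference (log2) of the 598 probe sets called in room air, on the 8 room air arrays (horizontal) and the 8 hyperoxia arrays (vertical), with the 318 also called under hyperoxia in colour and the dashed line marking equal differences. Most points over 1 unit from 0 lie near the line, and of these Trpm1 (1.21 in room air, -0.07 under hyperoxia) and Mfsd1 (-1.31 and -0.49) lie farthest from it.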

How the data were processed

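Retinal RNA was hybridised to single-colour Affymetrix gene arrays. The deposited table holds log2 expression values, made with RMA in Partek 6.4 per the submitters' processing notes. RMA subtracts background, equalises the arrays' distributions and summarises probes, so a shift common to most transcripts is removed. No scanner files were used here. Each array's column was matched to its sample and grouped by strain, oxygen and day from its title.

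Gene names came from the annotation of the array platform: 15097 had 1 symbol, 323 several and 11922 were not listed. By Entrez identifier 15067 were updated to RefSeq GRCr8 and 30 kept their symbol. The test was limma's moderated test (version 3.58.1, R 4.3.3; ~ day + strain on the 8 arrays, 5 residual and 5.06 prior degrees of freedom), two-sided, adjusted by Benjamini-Hochberg. Days, strain by day and strain by oxygen were tested from group means. Gene lists were counted over 14324 genes, each by its probe set of highest mean, with no set test. The number of arrays limits the precision. Scripts were tested on simulated data.

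The members and gene lists were chosen with earlier results of these data known. Named genes are the 15 largest called differences each way whose arrays do not overlap, up to 4 called members per list by p, members of runs of called neighbours, 10 genes of this disease model, and the smallest p values of the interaction tests. Other names are examples chosen after their values were seen. Alternatives were the arrays fitted, the day term, a replicate block, the features tested, a filter on dim probe sets, the empirical Bayes step, the scaling, and leaving out each array. The replicate numbers were not taken to pair the samples in the reported fit.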

Additional observations from a re-analysis of the deposited data

How the results depend on the processing

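The direction of the difference held for all 64 named called genes under every alternative run. In this balanced design only the 2 rescalings and leaving out 1 array can change the size of a difference. The 64 genes were also called on these same arrays, so the kept direction is a description. Of them 31 stayed called in each alternative run, among them Mospd1, Ly6g6e, Tap2, Pter, Slc26a7, Cd9, Pax4, RT1-Bb, RT1-DOb, Gnat1, Pde6a and Pde6b. Pax4 and other dim genes have no value without dim probe sets. The number of called probe sets moved from 598 to 1486 with all 16 arrays in the fit, 1209 with one mean per strain and day and 349 with no day term. It was 497 with 1 probe set per gene, 841 over all probe sets of the table, 559 without dim probe sets, 646 with robust eBayes, and 549 and 548 under the 2 rescalings, which left the share of calls higher in SD at 45.5% and 48.4%, against 44.6%. More calls were higher than lower in SD with the replicate block (54.3% higher) and without F344 day 6 replicate 1 (59.5%), F344 day 6 replicate 2 (56.8%) or SD day 6 replicate 2 (57.6%). Without 1 array it ranged over 125 to 1354, and 35 of the 64 genes stayed called in all 8 such fits. The sample titles number the replicates but name no pairing of SD with F344 arrays. Deviations from the group means correlated at -0.29 on day 5 and -0.24 on day 6 between same-numbered SD and F344 arrays, and at 0.09 and -0.10 under hyperoxia. With 2 arrays a group and probe sets that are not independent, these values cannot decide whether arrays were paired. With the replicate block, 105 probe sets were called in room air, 1447 under hyperoxia against 1454, 0 in the strain by day test and 0 in the strain by oxygen test, and 28 named genes lost their call. The rod count of 9 ran over 7 to 11 without 1 array and was 7 with the block. The cell cycle count of 8 was 3 with the block and 0 with no day term, and 1 to 9 without 1 array. The hyperoxia count ranged over 510 to 2738 without 1 array. With all 16 arrays the day 5 count was 117, the day 6 count 1782, and the strain by day test called 8 probe sets, of Ttc9b, Fibp, Ptov1, Nsrp1, Plbd2, Prelid1, Pkdcc and Irf2bpl (adjusted p = 0.0466). Without 1 array the day 5 count of 50 ranged over 15 to 63, the day 6 count of 1540 over 49 to 1820, the strain by day count stayed at 0, and the strain by oxygen count ranged over 0 to 8, being 1 without F344 room air day 5 replicate 1, and 5 and 8 without F344 hyperoxia day 6 replicate 1 or 2. A fit without 1 array assumes that the lone array of its group varies like the others. The cause of these shifts was not tested. The alternatives for single days, for list counts and for shared calls were chosen after seeing the data. Probe sets near the floor of the array (48 called) limit the measured size of a difference.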

Other observations

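Further called photoreceptor genes, outside the lists and named after their values were seen, were also higher in SD retinas in room air. They are examples and no full count of such genes. Gucy2d, named above and also called higher (0.46), was at -0.23 under hyperoxia. Crb1, a polarity protein at the photoreceptor junctions whose loss causes human retinal dystrophy, differed by 0.91 ± 0.14 (limma adjusted p = 0.0108), Tulp1, a photoreceptor trafficking protein, by 0.65 ± 0.13 (adjusted p = 0.0256), Impg1, a proteoglycan of the matrix between photoreceptors, by 0.62 ± 0.13 (adjusted p = 0.0286), Cabp4, a calcium-binding protein of the photoreceptor synapse, by 0.54 ± 0.08 (adjusted p = 0.00818), and Fam161a, a protein of the connecting cilium, by 0.50 ± 0.10 (adjusted p = 0.0284). Foxn4, a transcription factor of progenitors of amacrine and horizontal cells, was lower in SD, with means of 5.74 in SD and 6.20 in F344 retinas (-0.46 ± 0.10, adjusted p = 0.0399). Ppargc1a, a coactivator of mitochondrial genes, was higher by 0.84 ± 0.13 (adjusted p = 0.0108).

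Of 49 genes with several probe sets and at least 1 call, 17 had all sets called the same way, 28 had uncalled sets of the same sign and 4 had an uncalled set of the opposite sign, namely Luzp1, Prpf18, Slc25a24 and Tcf7l1. Slc25a24 was 1.10 on one set and -0.11 on the other.

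Of 12245 probe sets with several symbols or none, 320 were called (2.61%), 175 higher and 145 lower in SD. The largest was 10722435, with means of 8.66 in SD and 4.96 in F344 retinas (3.70, adjusted p = 2.37e-07), and 10851380 was the lowest, with 6.71 in SD and 8.81 in F344 retinas (-2.10, adjusted p = 0.00287).

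Some genes differed more between pools of 1 strain and day than between strains. Optc, which encodes opticin of the vitreous and ciliary body, had 4.80 and 6.69 on the SD day 6 arrays and 5.37 and 7.41 on the F344 day 5 arrays, Gja1, connexin 43, had 5.71 and 7.37 on the SD day 6 arrays, and Dll3, a Notch ligand, 8.66 and 7.19 on the same arrays. In F344 day 5 retinas, Ccdc107 had 8.03 and 9.44.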
